A study of Homo sapiens with 6 samples.

Results

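The immunoglobulin cell adhesion molecules examined here were VCAM1, ICAM1, ICAM3, L1CAM, NCAM1, ALCAM, MCAM, BCAM, F11R and JAM3. They were chosen as the 10 rows, of 30345 in the deposited polysome-seq table, whose symbol matched one of these names, and all 10 were found. OSRC-2 (OS-RC-2 in the labels) comes from a clear cell kidney cancer (ccRCC) without functional VHL, a loss that all groups share, and it is a single line grown in culture without the vessels and blood cells of a tumor. Cells received vehicle in 3 libraries and 2 µM of the HIF2 inhibitor PT2399 in 3 libraries for 72 h, and RNA was taken from the gradient fractions heavier than the monosome peak. The table holds no value of a single library. Each level below is therefore the authors' mean normalized count over all 6 libraries, vehicle and PT2399 together, with no error and no replicate spread, and a difference between PT2399 and vehicle was not analysed here.

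These proteins carry extracellular immunoglobulin domains that bind the same protein on a neighboring cell, another adhesion molecule, an integrin or the extracellular matrix. VCAM1 and ICAM1 are best known on cytokine-activated endothelium, where they hold leukocytes through their integrins. L1CAM and NCAM1 were first described on neurons, F11R and JAM3 sit at cell junctions, and several of the genes are also expressed by carcinoma cells. A polysome level reflects both how much of an mRNA a cell holds and how much of that mRNA is loaded with ribosomes, and these cannot be told apart in pooled heavy fractions.

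The sum of the means over all rows was 45358600 normalized counts, and the 10 members made up 0.0864% of it. For comparison between genes, each mean was divided by the length of the gene's longest annotated transcript and set against the 13915 genes that had a mean of at least 10 and a known length, whose median was 284 normalized counts per kilobase. Below, medians and percentages of genes, also where all genes are named, refer to these 13915 and not to all 30345 rows. The members and the lists below were not filtered on their mean. Their counts at or above this median therefore have no matching share, since that share was not taken over all 30345 rows. On this scale 6 of the 10 members (ALCAM, NCAM1, ICAM1, BCAM, VCAM1 and F11R) were at or above that median, whereas L1CAM, ICAM3, MCAM and JAM3 were below it. The count of 9 members with a mean of at least 10 left out only JAM3, and 16495 of the 30345 rows reached that mean. All 10 members carry the gene ontology term for cell adhesion in the table's annotation, as do 500 rows in all, of which 318 had a mean of at least 10 and a length, with a median of 200.5 normalized counts per kilobase.

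**Figure D1:**
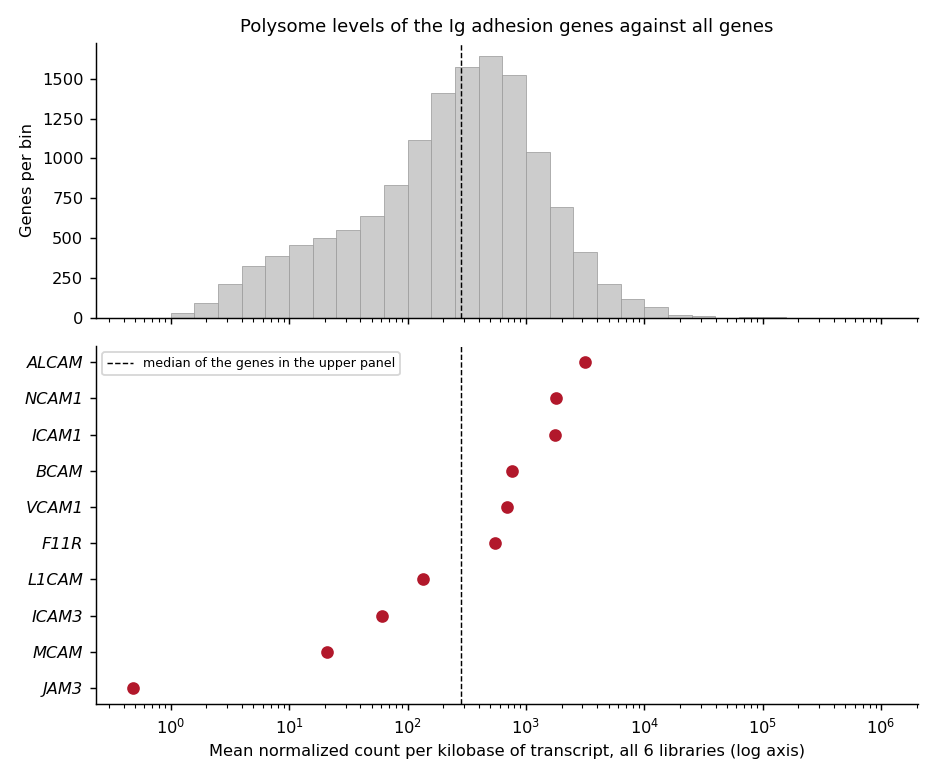
Upper panel, number of genes (vertical axis) by mean normalized count per kilobase of transcript (horizontal log axis) for the 13915 genes that have a known transcript length and reach a mean of 10. Lower panel, the same measure for each member, 1 point per gene from the authors' mean over 6 libraries, with the dashed line at the median of those genes. The points run from ALCAM at 3131 to JAM3 at 0.483 per kilobase, and 6 of the 10 lie to the right of the line.

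VCAM1 and ICAM1 are the 2 members with the longest record as ligands of leukocyte integrins, and their start sites are shown for the contrast in CpG content between genes that the data place on the same side of the median. RefSeq promoter windows (GRCh38.p14, from 250 bases before to 50 bases after the annotated start) were at hand for 7 of the 10 members, in 11 windows, and not for NCAM1, F11R and JAM3. Both sequences below are written 5′ to 3′ on the plus strand, VCAM1 at chr1:100719492-100719791 and ICAM1 at chr19:10270870-10271169, and capitals mark each CpG dinucleotide.
VCAM1: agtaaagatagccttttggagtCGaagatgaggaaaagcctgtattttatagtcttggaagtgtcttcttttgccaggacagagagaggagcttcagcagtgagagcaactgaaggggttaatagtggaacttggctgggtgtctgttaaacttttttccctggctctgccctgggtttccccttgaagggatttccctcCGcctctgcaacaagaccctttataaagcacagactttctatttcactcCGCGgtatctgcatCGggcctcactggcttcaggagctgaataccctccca
ICAM1: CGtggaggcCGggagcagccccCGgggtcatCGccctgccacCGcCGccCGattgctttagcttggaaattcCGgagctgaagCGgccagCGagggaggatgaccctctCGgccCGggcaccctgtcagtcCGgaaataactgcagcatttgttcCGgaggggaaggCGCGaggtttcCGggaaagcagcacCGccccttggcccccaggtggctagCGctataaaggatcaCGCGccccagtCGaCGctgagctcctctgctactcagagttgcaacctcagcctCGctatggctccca
The VCAM1 window held 5 CpG and the ICAM1 window 24, against a median of 14 over 35116 windows of the same length. At or below the VCAM1 number were 33.7% of all windows, and at or above the ICAM1 number 33.9%. The other windows ranged from 7 CpG, in 1 of the ICAM3 windows, to 32, in 1 of the BCAM windows, and the ALCAM window had 26.

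The letters TATAAA, searched on both strands, were found in 2 of the 11 member windows and in 11.5% of all windows. Those 2 were VCAM1, where the match nearest the start began 29 bases before it and overlapped a reverse match, and ICAM1, where it began 30 bases before it. ACGTG, 1 form of the core of the HIF-binding sequence, was searched in the same way. It was found in 1 of the 11 windows, an ICAM3 window at chr19:10334771-10335070, and in 21.4% of all windows. The form GCGTG, which reads CACGC on the other strand, was not searched. The letters CACGC are present in the ICAM1 window above, so windows without ACGTG can still hold this form. The ICAM3 window with ACGTG lies inside the gene, and the ICAM3 window at the gene's 5′ end, chr19:10339575-10339874, held no ACGTG. Such matches describe letters and not bound sites.

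The vascular ligands were both above the median in these carcinoma cells. ICAM1 (ENSG00000090339, chr19:10271120-10286615, GRCh38), a ligand of the integrins LFA-1 and Mac-1, had a mean of 5223 normalized counts, or 1760 per kilobase of its 2967-nucleotide transcript. That was 6.21-fold the median of all genes and higher than 90.3% of them. VCAM1 (ENSG00000162692, chr1:100719742-100739045), the ligand of integrin α4β1, had a mean of 2656 normalized counts and 687 per kilobase, 2.42-fold the median and higher than 72.8% of genes. Both levels were measured without endothelium in the culture. Of 5 endothelial markers (CDH5, PECAM1, VWF, TEK and KDR) 1 reached a mean of 10, PECAM1 at 13.2, where 16495 of 30345 rows did so. VWF was at 7.43, TEK at 1.91, KDR at 0.795 and CDH5, named after its value was seen, at 0.511.

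The ICAM genes of chromosome 19 had very unequal levels. ICAM1, ICAM4, ICAM5 and ICAM3 lie in this order within 68.5 kb, and ICAM4 and ICAM5 are named here after their values were seen. ICAM3 (ENSG00000076662, chr19:10333776-10339624), the form that resting leukocytes carry and a ligand of LFA-1 and of the lectin CD209, had a mean of 153 normalized counts, or 61.3 per kilobase, higher than 22.8% of genes. ICAM1 was 28.7-fold higher than ICAM3 per kilobase. ICAM4 and ICAM5, which in the body mark erythroid cells and forebrain neurons, had means of 2.87 and 9.67 normalized counts, that is 2.07 and 3.19 per kilobase. ICAM1, which stands next to ICAM4 on the chromosome, was 852-fold higher than it per kilobase. The ICAM4 mean was below the minimum of 10 and rests on few reads, so the size of this fold is uncertain.

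ALCAM and NCAM1, which form homophilic contacts, were the highest of the members and held 64.1% of the members' summed means. ALCAM (ENSG00000170017, chr3:105366909-105576900), which also binds CD6 on T cells, had a mean of 14717 normalized counts and 3131 per kilobase, 11.04-fold the median and higher than 95.4% of genes. Among the 318 genes annotated to cell adhesion, 38 were higher than ALCAM per kilobase. NCAM1 (ENSG00000149294, chr11:112961420-113278436), the carrier of polysialic acid in the developing nervous system, had a mean of 10392 normalized counts and 1786 per kilobase, higher than 90.5% of genes. NCAM1 and ICAM1 were close per kilobase, with a ratio of 1.01, and without scaling to length NCAM1 was 1.99-fold higher.

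The high NCAM1 level stood beside low neuronal markers. RBFOX3, SYP and MAP2 had means of 19.1, 15.1 and 39.1 normalized counts, and each was below the median of all genes per kilobase. L1CAM (ENSG00000198910, chrX:153861514-153886173), a neural adhesion molecule that guides axons and is found in many carcinomas, had a mean of 696 normalized counts and 135 per kilobase, 0.478-fold the median and higher than 34.0% of genes. NRCAM, another gene of the L1 family and among the 4 highest of the wider family, had a mean of 15019 normalized counts and was 16.6-fold higher than L1CAM per kilobase.

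BCAM and MCAM bind laminin and differed widely. BCAM (ENSG00000187244, chr19:44809059-44821421), the Lutheran blood group antigen and a receptor of the laminin α5 chain, had a mean of 2613 normalized counts and 765 per kilobase, higher than 75.3% of genes. Its partner gene LAMA5 was also well represented, with a mean of 11631 normalized counts and 1018 per kilobase. MCAM (ENSG00000076706, chr11:119308529-119317130), known from endothelium, pericytes and melanoma, had a mean of 102 normalized counts and 21.0 per kilobase, higher than 13.2% of genes. BCAM was 36.4-fold higher than MCAM per kilobase, and 25.6-fold higher without scaling to length.

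The 2 junctional adhesion molecules lay at opposite sides of the median. F11R (ENSG00000158769, chr1:160995211-161021152), a tight junction protein of epithelia, had a mean of 2638 normalized counts and 553 per kilobase, 1.95-fold the median and higher than 66.9% of genes. JAM3 (ENSG00000166086, chr11:134069072-134152001), which pairs with JAM2 and with the integrin Mac-1, had a mean of 1.82 normalized counts, a sum of 10.9 over the 6 libraries, and 0.483 per kilobase, below every gene with a mean of at least 10. That minimum left JAM3 itself out of the genes compared, so a place at the bottom was nearly fixed. With a minimum mean of 1, JAM3 was higher than 2.96% of genes. F11R was 1145-fold higher than JAM3 per kilobase. At this level the JAM3 value rests on very few reads, and the end of the gene shares 1889 bases with NCAPD3 on the opposite strand, which had a mean of 2571. JAM2 had a mean of 2.30 normalized counts, so both genes of that pair were below the minimum mean of 10. NCAPD3 and JAM2 are named after their values were seen.

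The order of the members per kilobase was ALCAM, NCAM1, ICAM1, BCAM, VCAM1, F11R, L1CAM, ICAM3, MCAM and JAM3. BCAM was 1.11-fold above VCAM1 and VCAM1 1.24-fold above F11R, and the unscaled means of these 3 genes, between 2613 and 2656, were closer still. Because no library values were at hand, it could not be tested whether these neighbors, or NCAM1 and ICAM1, differed beyond the spread of replicates. With coding length in place of transcript length F11R moved above both BCAM and VCAM1, since the F11R coding sequence is 897 nucleotides of a 4770-nucleotide transcript and that of VCAM1 2217 of 3865. Per kilobase of transcript, F11R was 4.08-fold above L1CAM and MCAM 43.5-fold above JAM3.

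**Figure D2:**
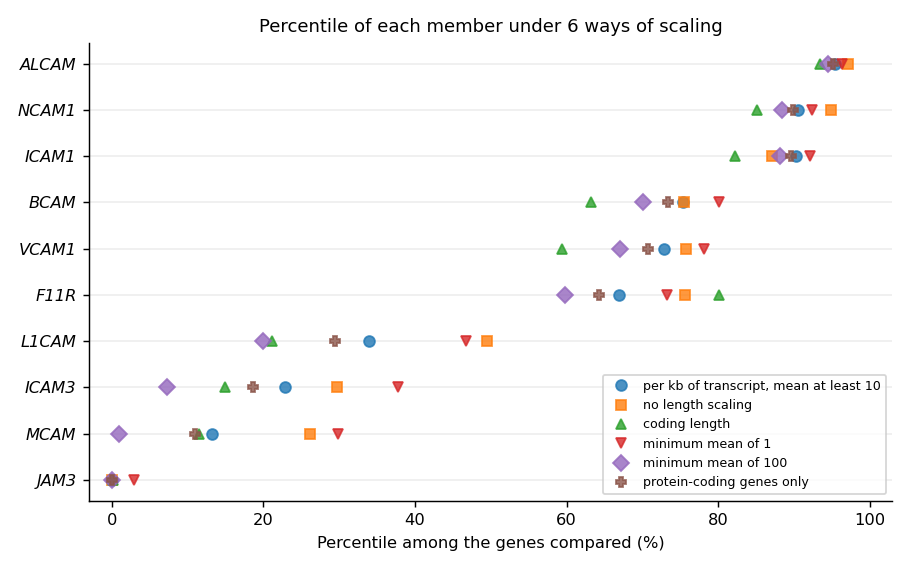
Percentile of each member among the genes compared (horizontal axis, in percent), with 1 symbol for each of 6 ways of scaling or filtering the authors' means. The symbols of ALCAM lie between 93.5% and 97.1% and those of JAM3 at or below 2.96%, and the symbols of L1CAM, ICAM3 and MCAM are spread most widely.

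In the wider immunoglobulin adhesion family, 38 of 43 listed genes had a row. Of these 38, 21 reached a mean of 10, a share close to the 16495 of 30345 rows that did so. The number at or above the median of all genes per kilobase was 11. That median is of genes filtered to a mean of at least 10 and the 38 were not filtered, so 11 of 38 is not low by itself. The highest means were those of PVR, the poliovirus receptor, at 19572 normalized counts, MPZL1, a receptor that recruits the phosphatase SHP2, at 17679, NRCAM at 15019 and BSG, the chaperone of monocarboxylate transporters, at 8596. Per kilobase, MPZL1 and BSG were above ALCAM, at 3551 and 3715, and PVR was close to it at 3027. A further 17 genes of the list had a row but a mean under 10, as did JAM3. NCAM2, CNTN3, DSCAM, CEACAM5 and HEPACAM were not analysed here.

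**Figure D3:**
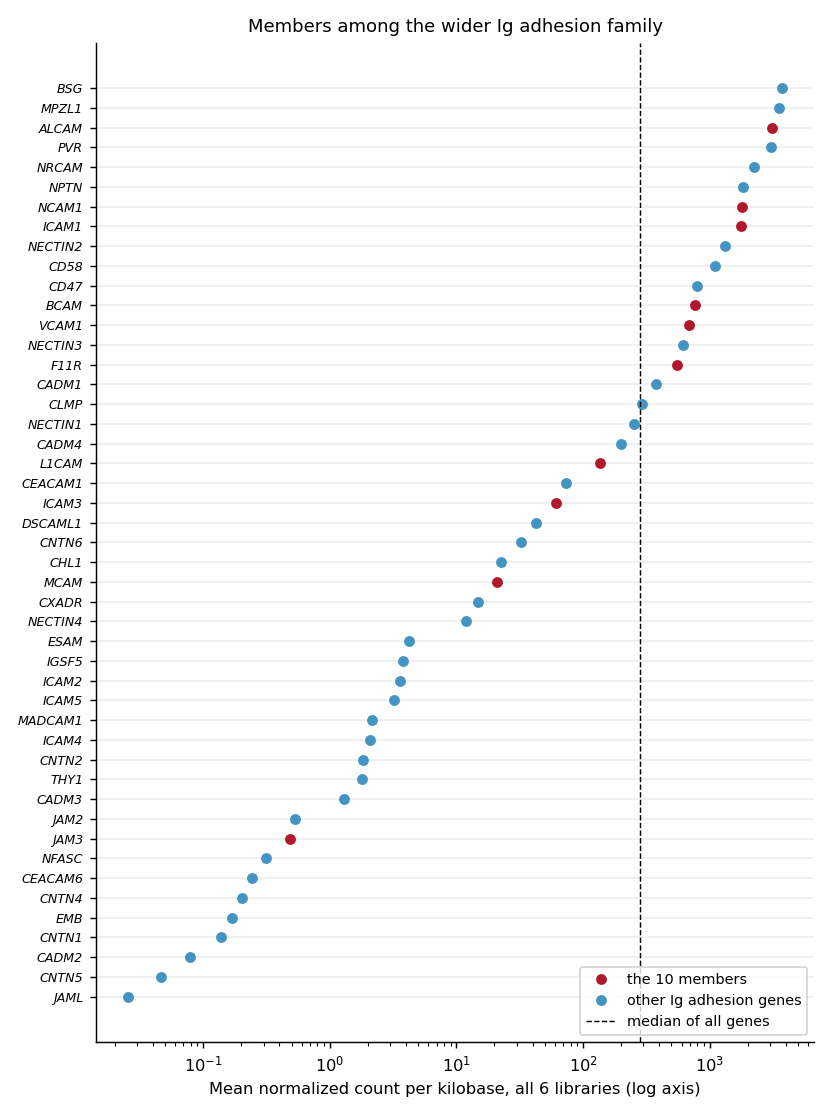
Mean normalized count per kilobase of transcript (horizontal log axis, authors' mean over 6 libraries) of the 10 members in red and 37 other immunoglobulin adhesion genes with a known length in blue, ordered by level, with the median of the genes compared dashed. ALCAM, NCAM1 and ICAM1 lie among the upper blue points, and JAM3 lies near JAM2 at the lower end.

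The integrin genes whose products bind the members ranged from very high to almost undetected. Of 12 integrin genes, 8 reached a mean of 10 (as did 16495 of 30345 rows) and 4 were at or above the median of all genes per kilobase. Those 4 were ITGB1, with a mean of 97673 normalized counts, ITGAV, with 15746, ITGA5, with 14650, and ITGB3, with 3413, and the chains αv, α5, β1 and β3 include the receptors of L1CAM. The α chains that pair with β1 to bind VCAM1 were scarce: ITGA4 had a mean of 0.277 and ITGA9 of 2.91 normalized counts. The leukocyte chains that bind ICAM1 and ICAM3 were also low, with ITGAL at 0.711, ITGB2 at 62.5, ITGAM at 62.7 and ITGAX at 115 normalized counts. These low genes are named after their values were seen. PTPRC, the pan-leukocyte marker, had a mean of 1.85 normalized counts, and CD209 one of 5.31. CD6 was not analysed here.

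Genes for the proteins that tie these molecules to the cytoskeleton were abundant. All 12 linker genes reached a mean of 10 (as did 16495 of 30345 rows), and 9 were at or above the median of all genes per kilobase. ACTN4, an actin crosslinker, had a mean of 57235 normalized counts, SPTBN1, the β chain of spectrin, 43249, MSN (moesin, which binds the tails of ICAM1 and VCAM1) 29610 and TJP1 (the tight junction scaffold ZO-1, which binds F11R) 20546. The ankyrins, which anchor L1CAM, were the 3 linkers below the median per kilobase, and they are named after their values were seen. Their means were 1580 for ANK2, 22.8 for ANK3 and 12.4 for ANK1. The place of ANK2 depends on its length, because its mean was divided by a 15298-nucleotide longest transcript. Unscaled, the ANK2 mean was above that of L1CAM, at 696, which without length scaling was higher than 49.5% of genes. Of the proteases that release adhesion molecules from the surface, ADAM10, which cleaves L1CAM, had a mean of 30597, ADAM17, which cleaves VCAM1 and ALCAM, 6319 and BACE1 357 normalized counts.

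**Figure D4:**
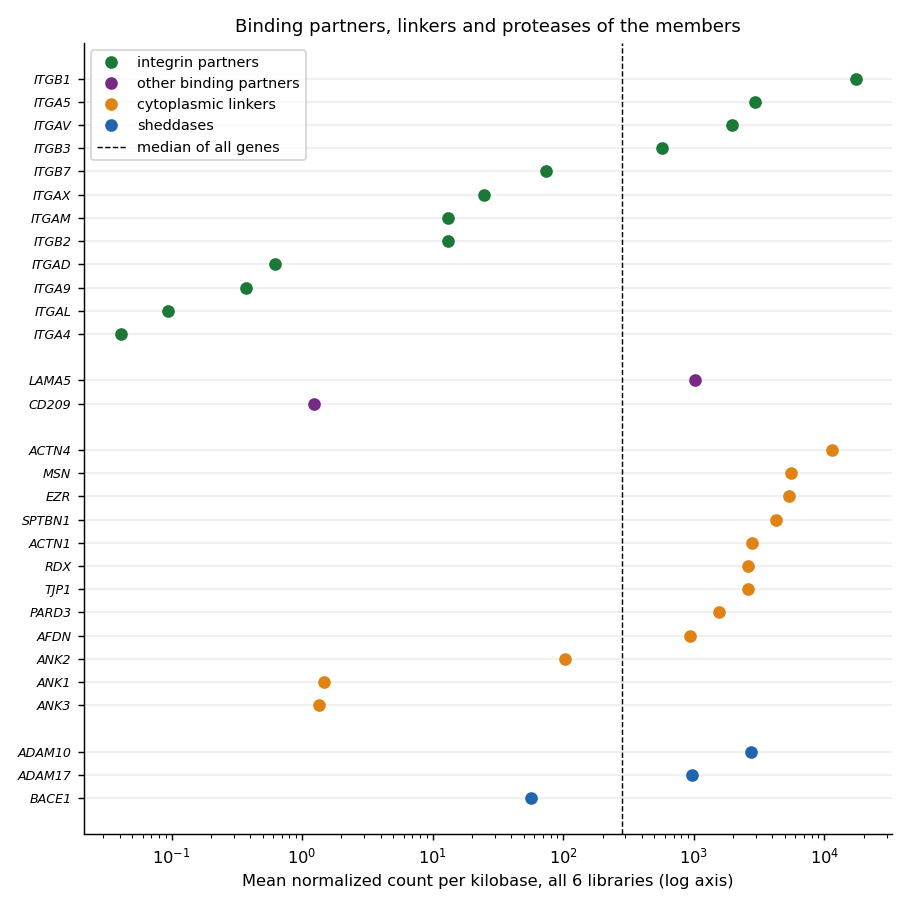
Mean normalized count per kilobase of transcript (horizontal log axis, authors' mean over 6 libraries) of the integrin and other binding partners, cytoplasmic linkers and proteases, 1 point per gene, with the median of the genes compared dashed. ITGB1 lies far to the right and ITGA4 and ITGAL far to the left of the same group, and 9 of 12 linkers lie to the right of the line.

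The markers of the renal label of the line were uneven. All 8 ccRCC and renal epithelial genes examined reached a mean of 10, as did 16495 of the 30345 rows. Of the 8, 6 were at or above the median per kilobase, led by VIM at 170524, CDH6 at 61317, PAX8 at 17472 and KRT8 at 9363 normalized counts. PAX2 was at 2185 and KRT18 at 1362. CA9, at 258, and NDUFA4L2, at 101, were below the median per kilobase. PAX2, KRT18, CA9 and NDUFA4L2 are named after their values were seen. Of 5 leukocyte genes 4 had a row and 2 reached a mean of 10, CD68 at 3555 and CD79A at 34.4. Per kilobase, CD68 was higher than 91.8% of genes. Of 4 fibroblast genes 1 reached a mean of 10, COL1A1 at 209, while PDGFRA, DCN and LUM lay between 1.36 and 1.49. The part of other cell types in the members' levels was not tested.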

How the data were processed

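Polysome-seq was done by the study in 6 OSRC-2 libraries, 3 with vehicle and 3 with PT2399 per the labels, whose treatment entry gives millimolar where the protocol and methods give 2 µM. Heavy gradient fractions were pooled and stranded total RNA libraries sequenced. For the upstream steps the submitters' processing notes list hg38, DESeq2 1.22.1 for the deposited comparison, Salmon, for which no version is stated in the notes, STAR 2.7.3a and bcl2fastq 2.18. For the use of strand in counting, nothing is stated in the notes. The deposited mean normalized count is a signal computed by the authors over all 6 libraries. The table's 5 other numeric columns (log2 fold change, its standard error, test score, p-value and adjusted p-value) hold the authors' own comparison of PT2399 with vehicle and were not used.

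Among 10745 genes with a mean under 3, 1844 (17.2%) were whole-read sums of 6 values that recur as lone reads, within 1e-10. The 6 values were taken from these same means, and 1304 genes were lone reads that match them by definition. They gave library size factors of 0.782 to 1.19. Genes other than the 1844 were not such sums, so reads per library were not recovered. Depth per library is known only as these factors. On simulated whole-read sums drawn with these same 6 values, the decoding recovered the reads of 193 of 193 genes. That checks the code only, because most of the real low means were not such sums.

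Lengths are the longest transcript of GENCODE 44 (lifted to the previous build, used for lengths and strand only), found for 13915 of 16495 genes with a mean of at least 10, 13373 by Ensembl ID and 542 by symbol. Coding length is the longest annotated coding sequence. Coordinates and promoter sequences are RefSeq GRCh38.p14, matched for all 10 members by Entrez ID. Values were computed with scipy 1.17.1, numpy 2.4.6 and pandas 2.3.3 under Python 3.11.15 and plotted with matplotlib 3.10.9. All members are named, with up to 4 genes of highest mean from each list and others as marked. A further gene of the renal marker list was left out of its counts and is not reported here. Members and lists were chosen with earlier results of these data known, and no test was run.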

Additional observations from a re-analysis of the deposited data

How the results depend on the processing

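The number of members at or above the median of the genes compared was 6 under each of 5 alternatives (no length scaling, coding length, a minimum mean of 1 or of 100, and protein-coding genes only). Each of these sets kept a minimum mean, and a median over all rows was not taken. The number of other immunoglobulin adhesion genes at or above the minimum mean was 21 at 10, 32 at 1, 18 at 50 and 17 at 100, and the larger number at 1 follows from the lower minimum itself. Percentiles ranged from 59.4% to 78.1% for VCAM1, from 82.2% to 92.2% for ICAM1, from 7.21% to 37.7% for ICAM3 and from 0.9% to 29.8% for MCAM. The fold of F11R over JAM3 was 1145 to 1505 and that of ICAM1 over ICAM3 28.7 to 35.1.

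No paired analysis was possible because the table has no columns of single libraries. For the same reason leaving out a replicate was not possible, and no spread, interval or difference between vehicle and PT2399 was computed. Depth limits the genes with means of a few normalized counts most, JAM3 among the members. PECAM1 had no transcript length and is given unscaled.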
